A study of Mus musculus with 18 samples.

Results

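The 9 genes described here encode the machinery by which death receptors and a nucleic acid sensor start apoptosis, necroptosis or pyroptosis: Tnfrsf1a, Fadd, Ripk1, Casp8, Cflar, Zbp1, Ripk3, Mlkl and Gsdmd. They were chosen by name and function, with earlier results of these data known, and they are 9 of the 32286 gene features counted in each library. Their transcripts were followed in 8 single-cell RNA-seq libraries of ileal crypt cells, made by the 10x Genomics 3' method, which tags every molecule with an identifier (UMI) and every droplet with a barcode. Counts were summed over the barcodes of a library, or of 1 class of cells in a library, and are given as counts per 1e6 UMIs of the same sum (CPM). They were compared across cell types and between Setdb1-KO and WT.

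All mice were on a C57Bl6 background, were 60 to 65 days old, carried Lgr5-GFP-CreERT2 and were injected once with 70 mg/kg tamoxifen 5 days before analysis. Cells sorted for GFP from Lgr5-GFP-CreERT2 mice (Lgr5+WT) and from Lgr5-GFP-CreERT2/Setdb1lox/lox mice (Lgr5+Setdb1KO) form the Lgr5+ sort, in which the study takes the mature cell types for cells without GFP that came through the gate. GFP+ cells of mice with the same alleles and the nTnG reporter, which turns descendants of recombined cells green, form the lineage-traced sort (lineage-traced WT and lineage-traced Setdb1KO). Each group has 2 libraries, and values below follow the order WT replicate 1, WT replicate 2, Setdb1KO replicate 1, Setdb1KO replicate 2. Controls carry the Cre driver and received tamoxifen too. Because the driver sits in the Lgr5 locus and is active in a mosaic of crypts, recombination starts in Lgr5+ cells and reaches other cell types only through their descendants. Both sorts were prepared apart, so levels were compared only within a sort, except in a test of the difference between the 2 genotype effects. The study calls its libraries independent biological replicates without tying them to named animals, and p-values measure the spread between these libraries.

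In the extrinsic pathway, a trimeric ligand clusters a death receptor such as TNF receptor 1, which recruits adaptors with death domains and the kinase RIPK1. Caspase-8 bound to FADD starts apoptosis, and its heterodimer with cFLIP cleaves RIPK1 and RIPK3 and so holds necroptosis in check. Where caspase-8 is blocked, RIPK3, activated by RIPK1 or by the Z-form nucleic acid sensor ZBP1, phosphorylates MLKL, which then breaks the plasma membrane, whereas gasdermin D forms the pores of pyroptosis after cleavage by inflammatory caspases. In the intestine, loss of caspase-8 or FADD in the epithelium is known for necroptosis of Paneth cells and for ileitis.

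Kept were 52015 barcodes. The Lgr5+ libraries held 2894 to 11423 barcodes with 27.61 to 61.34 M UMIs, and the lineage-traced libraries 3882 to 10239 barcodes with 8.08 to 26.74 M UMIs (M, 1e6). Over all kept barcodes, a gene of the 9 had 769 to 6949 UMIs in the Lgr5+ sort and 113 to 1321 in the lineage-traced sort, so several values of the latter rest on few molecules. The lineage-traced WT replicate 2 library stood apart: in 1874 of its 3882 barcodes (48.3%), the share of Paneth marker UMIs was near that of droplets without a cell, against 1.66% to 9.70% in the other lineage-traced libraries. Any 2 libraries shared 3 to 34 barcodes, at most 0.449% of the smaller. Barcodes were put in classes by marker UMIs alone (stem-like, dividing, enteroendocrine-like, tuft-like, Paneth-like, goblet-like and enterocyte-like), none of the 9 genes being a marker. In each class at least 2 of the 10 leading genes were its own markers, which follows from how the classes were made and is no check of them. Setdb1 itself stood at 11.3, 9.93, 5.32 and 6.21 CPM in the Lgr5+ sort, a fitted log2 difference of -0.85 ± 0.14 (SE, adjusted p = 0.0470, edgeR), and at 6.11, 4.21, 10.4 and 7.85 CPM in the lineage-traced sort, where the libraries labelled Setdb1-KO were not lower (log2 difference 0.24 ± 0.23, adjusted p = 0.603, edgeR). The 3' counts do not read the floxed exon, so they do not check the deletion.

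**Figure D1:**
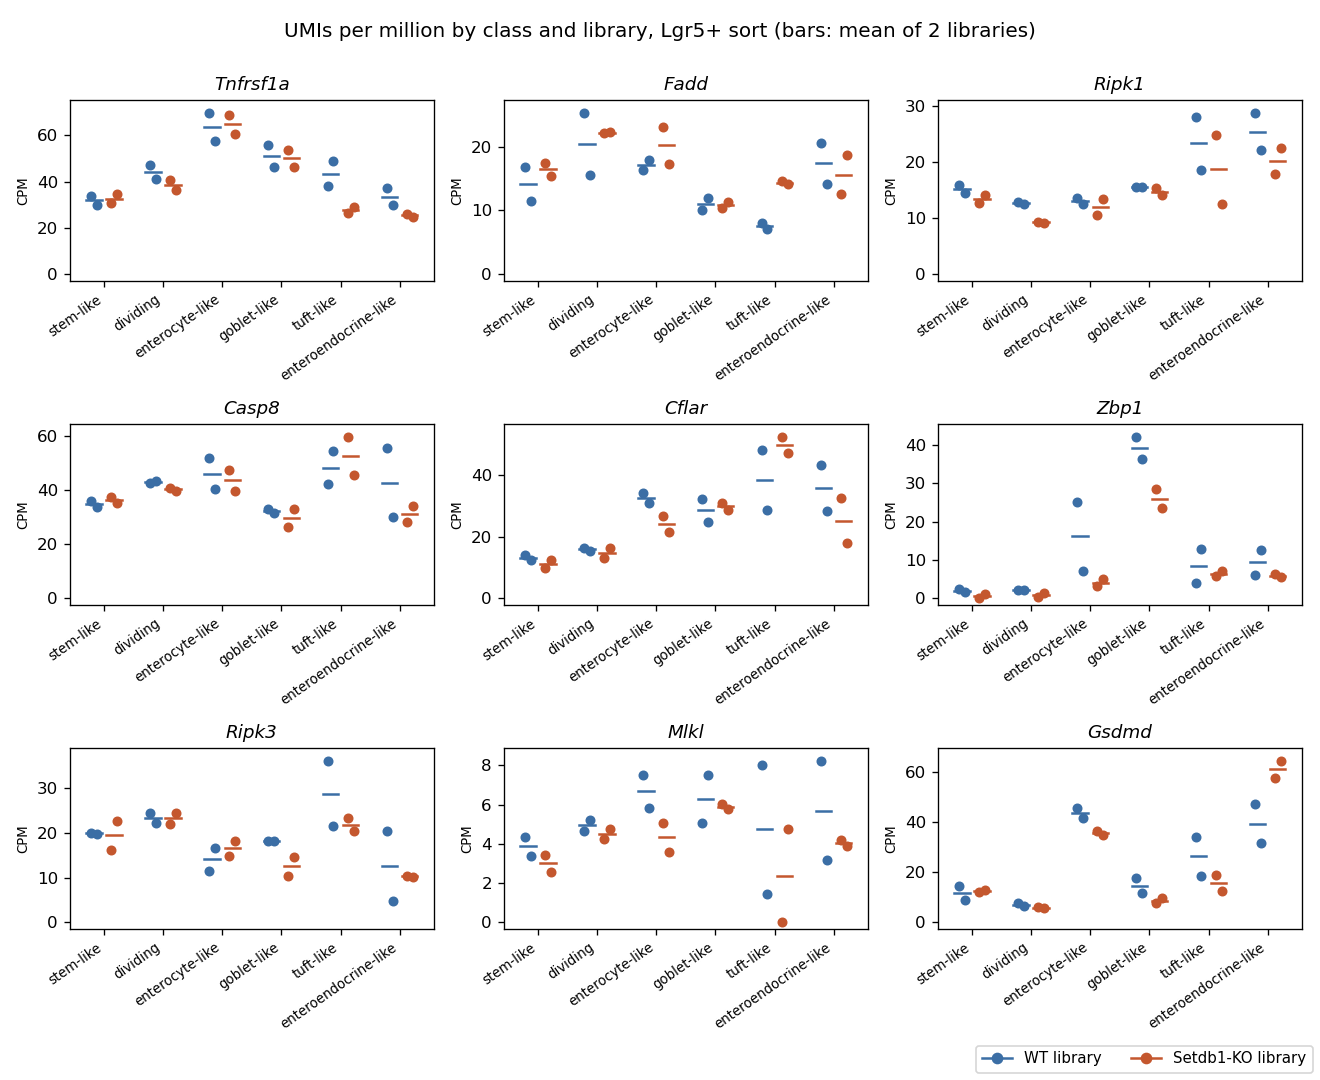
Levels of the 9 genes in the Lgr5+ sort, in CPM on a linear axis from 0, by class of cells; each point is 1 library and each bar the mean of the 2 libraries of a genotype. Zbp1 reached 23.5 to 42.1 CPM in goblet-like barcodes and stayed at or below 2.46 CPM in stem-like barcodes of the same libraries.

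The first question was in which cell types these genes are transcribed. Zbp1 varied most in the Lgr5+ sort, where it was highest in goblet-like barcodes, with very few molecules in stem-like and dividing barcodes. Gsdmd and Tnfrsf1a were higher in enterocyte-like barcodes than in the mean of the other classes, Cflar was lower in stem-like and dividing barcodes, and Fadd and Ripk3 were higher in dividing barcodes. Each class was compared with the mean of the other epithelial classes within the same libraries, by the quasi-likelihood F test of edgeR, with p-values adjusted over all genes tested (Benjamini-Hochberg) and called under 0.05. All 9 genes passed the filter on low counts in the Lgr5+ sort, and 32 class differences passed the test. In enterocyte-like barcodes, 7 genes were higher and 0 lower, in a comparison that called 67.2% of all genes tested. In goblet-like barcodes 5 were higher and 1 lower (55.9% of all genes), in stem-like barcodes 1 was higher and 4 lower (60.5%), and in dividing barcodes 2 were higher and 4 lower (62.8%). In tuft-like barcodes 1 was higher and 2 lower (33.7%), and in enteroendocrine-like barcodes 1 was higher and 4 lower (63.1%). Since these contrasts called so many genes, the number of calls is near the background, and it is the size and direction of each gene's difference that is described below.

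In the lineage-traced sort 7 of the 9 genes passed the filter, all but Ripk3 and Mlkl, and 20 class differences passed the test. Enterocyte-like barcodes had 5 genes higher and 0 lower (46.7% of all genes tested were called). Stem-like barcodes had 0 higher and 4 lower (38.8%), and dividing barcodes 1 higher and 5 lower (46.9%). Goblet-like barcodes had 1 gene higher (28.9%), Paneth-like barcodes 2 higher and 1 lower (15.2%), and enteroendocrine-like barcodes 1 higher (15.5%). The 2 called higher in Paneth-like barcodes, Cflar and Tnfrsf1a, had their lowest mean CPM of the 6 classes there (12.55 and 8.62). Both changed sign with library totals. Scaling matters here: with library totals in place of TMM factors, all genes called higher made up 26.2% instead of 43.7% of the calls in Lgr5+ enterocyte-like barcodes, 29.8% instead of 53.6% in goblet-like, 76.3% instead of 54.1% in tuft-like and 80.4% instead of 50.4% in enteroendocrine-like barcodes. Among lineage-traced classes they made up 89.3% instead of 52.5% of the calls in stem-like, 86.9% instead of 51.6% in dividing, 66.8% instead of 54.1% in enterocyte-like, 83.7% instead of 60.3% in goblet-like, 0.714% instead of 65.9% in Paneth-like and 99.2% instead of 41.6% in enteroendocrine-like barcodes. Of the 52 differences called in both sorts, 27 kept their call and direction under every alternative run.

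**Figure D2:**
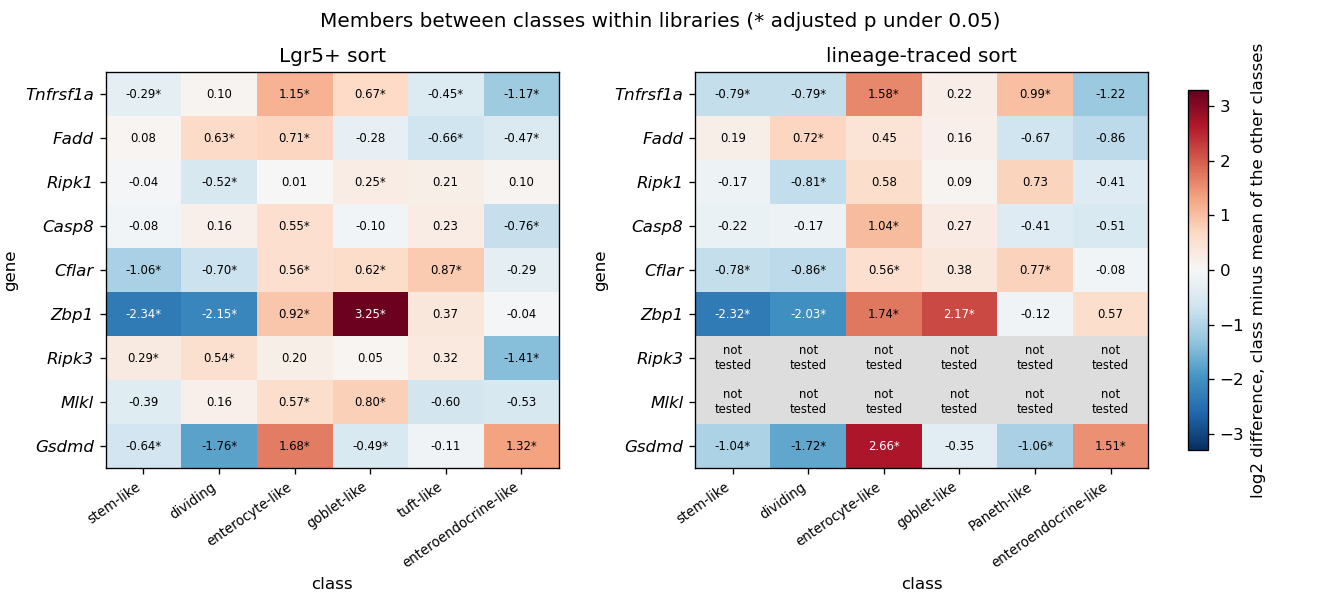
Log2 difference between a class and the mean of the other classes, fitted within libraries, for the 9 genes (rows) in the classes of each sort (columns); red is higher, blue is lower, and an asterisk marks an adjusted p under 0.05. The deepest colours are Zbp1 in goblet-like barcodes of the Lgr5+ sort (3.25) and Gsdmd in enterocyte-like barcodes of the lineage-traced sort (2.66).

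Tnfrsf1a (ENSMUSG00000030341, GRCm38 chr6:125349362-125362484, plus strand) encodes TNF receptor 1, the receptor through which TNF signals in most cells. Its level in enterocyte-like barcodes of the Lgr5+ sort was 69.6, 57.6, 68.7 and 60.6 CPM (64.1 ± 5.96, SD, n = 4 libraries), above every value in the next class, the goblet-like barcodes (55.6, 46.1, 53.8 and 46.5 CPM). Stem-like barcodes had 33.8, 30.1, 30.8 and 34.5 CPM and enteroendocrine-like barcodes 37.0, 30.0, 26.2 and 24.9 CPM, ranges that overlap. The receptor transcript was 2.21-fold higher in enterocyte-like barcodes than in the mean of the other classes (log2 difference 1.15 ± 0.08, adjusted p = 4.40e-14, edgeR). It was also higher in goblet-like barcodes (log2 difference 0.67 ± 0.08) and lower in stem-like and enteroendocrine-like ones (-0.29 ± 0.08 and -1.17 ± 0.14), calls that every alternative kept. Enterocyte-like values of the lineage-traced sort were 56.8 and 36.1 CPM in WT and 0 and 13.3 CPM in Setdb1KO, the latter from 0 and 7 UMIs. That contrast (log2 difference 1.58 ± 0.26, adjusted p = 1.24e-06, edgeR) lost its call without WT replicate 1 (0.71, adjusted p = 0.179).

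Fadd (ENSMUSG00000031077, chr7:144577318-144582463, minus strand) encodes the adaptor that brings caspase-8 to death receptors. In dividing barcodes of the Lgr5+ sort it stood at 25.3, 15.6, 22.2 and 22.2 CPM, and in stem-like barcodes at 16.8, 11.5, 17.5 and 15.4 CPM. In each library the dividing value was above the stem-like one, although the ranges over libraries overlap. It was 1.55-fold higher in dividing barcodes than in the mean of the other classes (log2 difference 0.63 ± 0.10, adjusted p = 1.41e-06, edgeR) and 1.64-fold higher in enterocyte-like barcodes, both under every alternative. Goblet-like and tuft-like barcodes were lowest, the former at 10.1, 11.9, 10.4 and 11.4 CPM. For lineage-traced dividing barcodes the difference was 0.72 ± 0.25 (adjusted p = 0.0161, edgeR), and it lost its call under 5 alternatives, among them DESeq2 (0.60, adjusted p = 0.130) and leaving out WT replicate 1 (0.66, adjusted p = 0.0793). Reads of Fadd and of the overlapping antisense gene Faddos can be told apart only as far as the counting used strand.

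Fadd and Ripk3 were the genes of the 9 called higher in dividing barcodes of the Lgr5+ sort, and the 250 bases before their RefSeq starts are printed here to set the promoters of these 2 genes side by side (GRCm38.p6, Fadd chr7:144582442-144582691 and Ripk3 chr14:55788858-55789107, both on the minus strand, 5' to 3'; the last bases of each reach into the GENCODE gene model). Capitals mark the letters GCGGGAAA, the form of the E2F motif that was searched.
Fadd: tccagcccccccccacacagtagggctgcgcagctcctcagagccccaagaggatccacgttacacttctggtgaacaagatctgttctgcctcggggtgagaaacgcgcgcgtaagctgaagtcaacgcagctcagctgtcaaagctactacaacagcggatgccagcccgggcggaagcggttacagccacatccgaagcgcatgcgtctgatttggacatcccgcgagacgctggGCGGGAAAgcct
Ripk3: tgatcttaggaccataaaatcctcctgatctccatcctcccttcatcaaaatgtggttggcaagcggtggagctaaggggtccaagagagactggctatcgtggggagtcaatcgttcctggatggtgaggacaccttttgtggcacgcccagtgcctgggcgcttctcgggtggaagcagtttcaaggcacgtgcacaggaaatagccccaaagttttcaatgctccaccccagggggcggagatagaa
The E2F letters begin 12 bases before the start of Fadd, and the printed stretch of Ripk3 does not hold them.

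Those letters were searched on both strands of the 250 bases before the start in the RefSeq promoter table, which held 7 of the 9 genes with 8 starts, all but Zbp1 and Gsdmd. Of all 32851 promoters, 294 (0.895%) held GCGGGAAA. The interferon regulatory factor motif (GAAA, any 2 bases, GAAA) was in 2.98% of all promoters and in 0 of the 8. The STAT motif TTCNNNGAA was in 7.02% of all promoters and in 2 of the 8, that of Tnfrsf1a and the second of the Ripk1 starts. The motifs were picked with the class pattern known, and a match only says that the letters are there.

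Ripk1 (ENSMUSG00000021408, chr13:34002363-34037147, plus strand) encodes the kinase that joins survival signalling, apoptosis and necroptosis at the receptor. It varied little between most classes of the Lgr5+ sort. Stem-like barcodes had 15.9, 14.4, 12.7 and 14.2 CPM, goblet-like barcodes 15.5, 15.6, 15.4 and 14.1 CPM and enterocyte-like barcodes 13.6, 12.5, 10.7 and 13.5 CPM, and these ranges overlap. Dividing barcodes were lowest at 12.8, 12.6, 9.38 and 9.19 CPM (log2 difference -0.52 ± 0.09, adjusted p = 1.41e-05, edgeR), a call kept under every alternative. Its small difference in goblet-like barcodes (0.25 ± 0.10, adjusted p = 0.0415, edgeR) turned to -0.04 with library totals. Enteroendocrine-like barcodes held the highest CPM (28.8, 22.1, 17.8 and 22.5), from 14 to 29 UMIs a library, but the fitted difference was 0.10 ± 0.17, and every gene's position in this class moves with the scaling as given above.

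Casp8 (ENSMUSG00000026029, chr1:58795374-58847503, plus strand) encodes the initiator caspase, and Cflar (ENSMUSG00000026031, chr1:58711508-58758884, plus strand) encodes cFLIP, its catalytically inactive relative. The genes are neighbours, Cflar ending 36.5 kb before Casp8 begins. Their patterns differed. In the Lgr5+ sort Casp8 was lower in stem-like barcodes (36.0, 33.9, 37.4 and 35.4 CPM) than in every library's dividing (42.6, 43.3, 40.8 and 39.8 CPM) and enterocyte-like barcodes (51.9, 40.5, 47.4 and 39.9 CPM), and the last 2 overlap. By CPM Casp8 was lowest in goblet-like barcodes (26.4 to 33.2 CPM). Its fitted stem-like difference was not called (-0.08 ± 0.08, adjusted p = 0.396, edgeR). It was called lower in enteroendocrine-like barcodes (-0.76 ± 0.14, adjusted p = 1.79e-05, edgeR), but not under every alternative. Its difference in enterocyte-like barcodes, 0.55 ± 0.09 on the log2 scale (adjusted p = 4.66e-06, edgeR), was kept under every alternative. Cflar stood at 14.1, 12.4, 9.79 and 12.6 CPM in stem-like barcodes, below every value in goblet-like (32.3, 24.9, 31.1 and 28.7 CPM) and tuft-like barcodes (48.2, 28.6, 52.5 and 47.3 CPM). It was 2.09-fold lower in stem-like barcodes (log2 difference -1.06 ± 0.11, adjusted p = 1.89e-10, edgeR) and 1.63-fold lower in dividing ones, and higher in goblet-like (0.62 ± 0.10) and tuft-like barcodes (0.87 ± 0.16), all under every alternative. In the lineage-traced sort Cflar was again lower in dividing barcodes under every alternative (-0.86 ± 0.17, adjusted p = 5.63e-05, edgeR), at 22.6, 11.2, 19.2 and 19.1 CPM against 36.7, 40.5, 37.3 and 31.6 CPM in goblet-like barcodes.

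Zbp1 (ENSMUSG00000027514, chr2:173206612-173218923, minus strand) encodes the sensor of Z-form nucleic acids, an interferon-induced gene that can start necroptosis through RIPK3. In goblet-like barcodes of the Lgr5+ sort it was counted 233, 179, 109 and 200 times, or 42.1, 36.2, 28.5 and 23.5 CPM. Stem-like barcodes held 25, 19, 1 and 12 UMIs (2.46, 1.61, 0.163 and 1.24 CPM) although they outnumbered goblet-like barcodes in every library, and dividing barcodes 28, 28, 3 and 22 UMIs (2.21, 2.25, 0.469 and 1.26 CPM). The goblet-like class, with 14.6% of the kept barcodes, held 60.9% of the 1183 Zbp1 UMIs. Its level there was 9.48-fold above the mean of the other classes (log2 difference 3.25 ± 0.16, adjusted p = 1.03e-18, edgeR), and it was 5.06-fold lower in stem-like and 4.43-fold lower in dividing barcodes, all under every alternative. In enterocyte-like barcodes it was 0.92 ± 0.27 above the other classes on the log2 scale (adjusted p = 0.00354), a call lost without WT replicate 1 (0.36, adjusted p = 0.242) and with library totals (0.58, adjusted p = 0.0513, edgeR), and its CPM there overlap those of enteroendocrine-like and tuft-like barcodes.

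The share of goblet-like barcodes with a Zbp1 UMI was 23.4%, 20.7%, 18.3% and 10.1%, at median depths of 6950, 5736.5, 8281 and 4207 UMIs. Stem-like barcodes had 1.63%, 0.819%, 0.139% and 0.507%, at 6326.5, 4983, 8072.5 and 3720 UMIs. Droplets without a cell held Zbp1 at 8.18, 4.51, 3.67 and 3.97 CPM, from 10, 6, 10 and 5 UMIs. The part of free RNA in either class was not tested. With every barcode thinned to the minimum of 1000 UMIs the shares were 4.81%, 4.17%, 2.87% and 2.49% in goblet-like and 0.0679%, 0.193%, 0 and 0.127% in stem-like barcodes. No barcode held more than 5 Zbp1 UMIs in either class. These shares carry counting error only and do not limit the cells that express the gene.

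Lineage-traced barcodes also had more Zbp1 in the goblet-like than in the stem-like class. Goblet-like barcodes held 36, 13, 26 and 98 UMIs (22.8, 26.3, 26.2 and 30.9 CPM) and stem-like ones 6, 1, 8 and 9 (2.59, 1.31, 2.83 and 1.73 CPM). It was 4.49-fold higher in goblet-like barcodes (log2 difference 2.17 ± 0.24, adjusted p = 7.83e-11, edgeR), under every alternative. The lower level in stem-like and dividing barcodes (-2.32 ± 0.37 and -2.03 ± 0.37) lost its call without Setdb1KO replicate 2 (-0.84, adjusted p = 0.975, and -0.25, adjusted p = 0.925). Enterocyte-like barcodes held 32 and 12 UMIs in WT (25.6 and 27.1 CPM), in each WT library above its goblet-like value, but 0 and 4 in Setdb1KO (0 and 7.59 CPM). The difference of enterocyte-like barcodes from the other classes lost its call without WT replicate 1 (1.077, adjusted p = 0.123, edgeR).

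Ripk3 (ENSMUSG00000022221, chr14:55784995-55788865, minus strand) encodes the kinase at the centre of necroptosis. In the Lgr5+ sort it stood at 20.1, 19.8, 16.2 and 22.8 CPM in stem-like and 24.4, 22.2, 22.1 and 24.6 CPM in dividing barcodes, against 20.6, 4.73, 10.5 and 10.1 CPM in enteroendocrine-like barcodes. It was 1.45-fold higher in dividing barcodes (log2 difference 0.54 ± 0.10, adjusted p = 1.48e-05, edgeR) and 2.65-fold lower in enteroendocrine-like barcodes (-1.41 ± 0.23, adjusted p = 2.87e-06), both under every alternative. The latter rests on 3 to 13 UMIs a library. In stem-like barcodes a log2 difference of 0.29 ± 0.10 (adjusted p = 0.0161, edgeR) was lost without WT replicate 2 (0.26, adjusted p = 0.0742), without Setdb1KO replicate 2 (0.20, adjusted p = 0.203) and with library totals (0.20, adjusted p = 0.102). The stem-like class thus held 99 to 233 Ripk3 UMIs a library beside the 1 to 25 of Zbp1.

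Mlkl (ENSMUSG00000012519, chr8:111311797-111338177, minus strand), the pore-forming executioner of necroptosis, was counted 188, 206, 124 and 251 times in the Lgr5+ sort and 35, 12, 20 and 46 times in the lineage-traced sort. Goblet-like barcodes had 5.06, 7.49, 6.0 and 5.75 CPM and stem-like barcodes 4.33, 3.40, 3.43 and 2.57 CPM, so that every goblet-like value was above every stem-like value. It was 1.74-fold higher in goblet-like barcodes (log2 difference 0.80 ± 0.19, adjusted p = 0.000615, edgeR), under every alternative. The call in enterocyte-like barcodes (0.57 ± 0.24, adjusted p = 0.0368, edgeR) was lost under several, for example with the marker minimum doubled (0.54, adjusted p = 0.142).

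Gsdmd (ENSMUSG00000022575, chr15:75862327-75867408, plus strand) encodes gasdermin D. In enterocyte-like barcodes of the Lgr5+ sort it stood at 45.7, 41.6, 36.5 and 34.9 CPM and in enteroendocrine-like barcodes at 47.3, 31.6, 57.6 and 64.5 CPM. Dividing barcodes had 7.64, 6.35, 6.26 and 5.57 CPM, below every value in the other classes tested but for 1 goblet-like value (7.57 CPM), and stem-like barcodes 14.5, 8.91, 12.2 and 13.1 CPM. It was 3.20-fold higher in enterocyte-like (log2 difference 1.68 ± 0.12, adjusted p = 9.37e-14, edgeR) and 2.50-fold higher in enteroendocrine-like barcodes, and 3.38-fold lower in dividing ones. In the lineage-traced sort it was 6.33-fold higher in enterocyte-like barcodes (2.66 ± 0.22, adjusted p = 4.29e-15, edgeR), at 99.2, 94.7, 18.4 and 17.1 CPM, and 3.3-fold lower in dividing ones (-1.72 ± 0.27). Each of these 5 calls was kept under every alternative that left the class enough barcodes. Its lower level in lineage-traced stem-like barcodes (-1.04 ± 0.24, adjusted p = 0.000486, edgeR) was not kept with at least 1000 UMIs a barcode (-0.04, adjusted p = 0.915), where the enterocyte-like and enteroendocrine-like classes had too few barcodes to be compared.

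For each gene the 2 genes most alike over the 24 sums of class and library in the Lgr5+ sort are given as a description. All points of a library share its depth. For Zbp1 they were H2-T22, a class I histocompatibility gene (Pearson's r = 0.917), and Tmc6 (0.914). For Tnfrsf1a they were Aoc1 (0.920) and Smim31 (0.903), for Gsdmd Ptprh (0.914) and Tmem106a (0.913), for Cflar Sdcbp2 (0.903) and Cdhr5 (0.899), and for Ripk1 Src (0.902) and Osbpl8 (0.897). The values were lower for Casp8 with ccdc198 (0.876) and Amdhd2 (0.812), Fadd with Ptcd2 (0.827) and Mrpl47 (0.826), Ripk3 with Rest (0.777) and Mpg (0.759), and Mlkl with Pex7 (0.743) and Crybg2 (0.667). Among the 9 themselves the values ran from -0.53 (Zbp1 and Fadd) to 0.55 (Cflar and Ripk1).

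**Figure D3:**
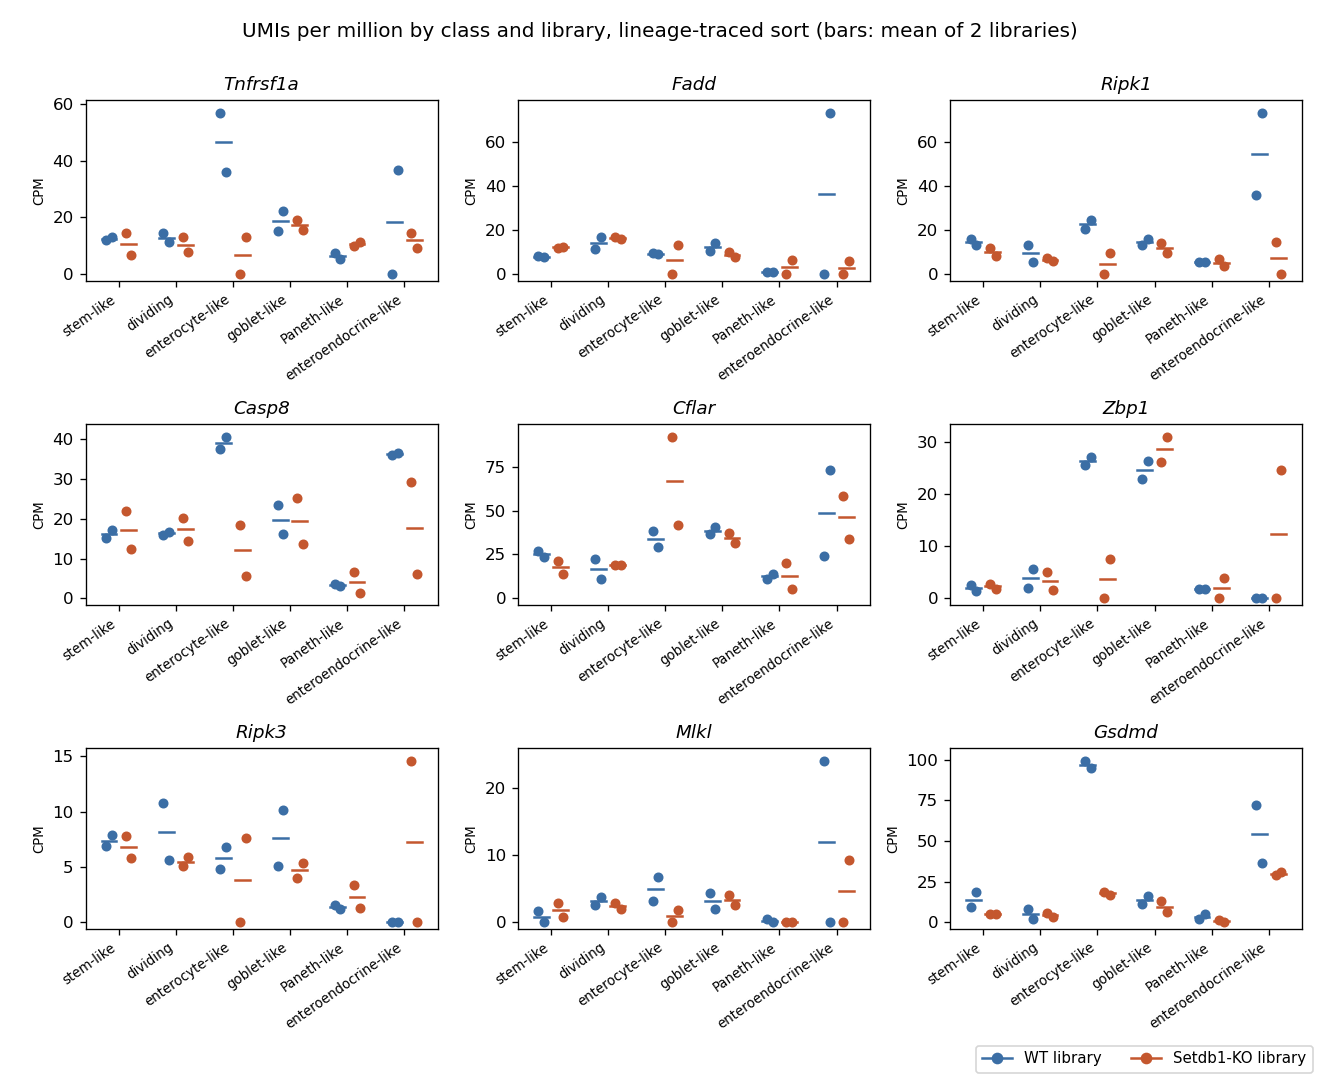
Levels of the 9 genes in the lineage-traced sort, in CPM on a linear axis from 0, by class of cells; each point is 1 library and each bar the mean of the 2 libraries of a genotype. Gsdmd stood at 99.2 and 94.7 CPM in enterocyte-like barcodes of WT and at 18.4 and 17.1 CPM in those of Setdb1KO.

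The second question was whether deleting Setdb1 in Lgr5+ cells changed these genes. In the Lgr5+ sort none of the 9 passed the test, in all barcodes or in any class. Over all barcodes, 0 of 9 were called by edgeR and 0 by DESeq2, in a comparison that called 1.34% of all genes tested, and 1 had an unadjusted p under 0.05. That gene was Zbp1, at 9.66, 7.64, 5.83 and 5.43 CPM. Both WT libraries were above both Setdb1KO libraries, and the fitted log2 difference was -0.60 ± 0.13 (adjusted p = 0.0858, edgeR). The other differences were -0.07 ± 0.08 for Tnfrsf1a, 0.17 ± 0.13 for Fadd, -0.20 ± 0.09 for Ripk1, -0.05 ± 0.08 for Casp8 and -0.02 ± 0.08 for Cflar. They were -0.14 ± 0.14 for Ripk3, -0.19 ± 0.15 for Mlkl and 0.16 ± 0.13 for Gsdmd. The median over the 9 was -0.07, beside -0.01 over all genes. The mix of cell types differed between these libraries, and in such sums cell numbers and RNA per cell cannot be told apart. Enterocyte-like barcodes numbered 164 of 4768, 344 of 6133, 356 of 2894 and 783 of 11423. Within classes Gsdmd differed by -0.32 in enterocyte-like, -0.25 in dividing, -0.69 in goblet-like and -0.71 in tuft-like barcodes. It differed by 0.18 in stem-like and 0.65 in enteroendocrine-like ones, and none of these passed.

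Levels behind the differences over all barcodes were close between libraries. Tnfrsf1a stood at 46.2, 39.4, 42.5 and 38.5 CPM and Casp8 at 39.2, 38.1, 38.0 and 36.2 CPM. Cflar had 20.7, 18.9, 19.7 and 19.1 CPM, Ripk3 22.3, 20.0, 17.02 and 20.7 CPM, and Mlkl 4.88, 4.97, 4.49 and 4.09 CPM. Ripk1 stood at 14.7, 14.0, 12.8 and 12.0 CPM. For Ripk1, Mlkl and, by a small margin, Casp8 both WT values were above both Setdb1KO values, and for the others of these genes the genotypes overlap.

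In stem-like barcodes, where the Cre is driven, 0 of 9 genes were called (0.898% of all genes tested, edgeR), 0 by DESeq2 and 1 at an unadjusted p under 0.05. This was again Zbp1, with the 25 and 19 UMIs of WT against 1 and 12 of Setdb1KO (log2 difference -1.26 ± 0.56, adjusted p = 0.386, edgeR). Casp8 differed by 0.10 ± 0.11, Ripk1 by -0.11 ± 0.15, Ripk3 by 0.03 ± 0.17, Mlkl by -0.34 ± 0.30 and Fadd by 0.26 ± 0.17 on the log2 scale. Tnfrsf1a differed by 0.09 ± 0.12, Cflar by -0.17 ± 0.18 and Gsdmd by 0.18 ± 0.20. Dividing barcodes likewise had 0 of 9 called (0.773%), 0 by DESeq2 and 2 with an unadjusted p under 0.05, Zbp1 (-1.11 ± 0.41, adjusted p = 0.313) and Ripk1 (-0.45 ± 0.15, adjusted p = 0.267, edgeR).

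Differentiated classes of the Lgr5+ sort had no called gene either, and whether their cells had recombined was not tested. Setdb1 itself differed by -0.04 ± 0.48 in enterocyte-like, -0.29 ± 0.28 in goblet-like and -1.64 ± 0.52 in tuft-like barcodes (adjusted p = 0.989, 0.970 and 0.647, edgeR). In stem-like and dividing ones it differed by -0.91 ± 0.26 and -0.93 ± 0.18 (adjusted p = 0.156 and 0.0592, edgeR). In goblet-like barcodes 0 of 9 were called by edgeR (0.398% of all genes) and by DESeq2, and 2 had an unadjusted p under 0.05. These were Zbp1, whose 4 values given above do not overlap between genotypes (log2 difference -0.59 ± 0.16, adjusted p = 0.245, edgeR), and Gsdmd, at 17.5, 11.7, 7.57 and 9.74 CPM (-0.69 ± 0.25, adjusted p = 0.593). The Zbp1 difference passed the test without Setdb1KO replicate 1 (-0.71, adjusted p = 0.0172) and without the filter on low counts (-0.60, adjusted p = 0.0491). In enterocyte-like barcodes 0 of 9 were called (0.523%) by edgeR and by DESeq2, which gave Mlkl no adjusted p, and 2 had an unadjusted p under 0.05. Zbp1 went there from 25.2 and 7.0 CPM in WT to 3.3 and 4.95 CPM in Setdb1KO without passing (-1.81 ± 0.52, adjusted p = 0.211, edgeR), although it passed without WT replicate 2 (-2.58, adjusted p = 0.0434) and without the filter on low counts (-1.80, adjusted p = 1.77e-05), and Cflar differed by -0.46 ± 0.18 (adjusted p = 0.365). In tuft-like barcodes 6 genes were tested, and 0 were called (0.064%), 0 by DESeq2 and 0 at an unadjusted p under 0.05. In enteroendocrine-like barcodes 6 were tested and 0 called (0.0638%) by edgeR and by DESeq2, and 1 had an unadjusted p under 0.05, Gsdmd (0.65 ± 0.27, adjusted p = 0.733).

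Markers of immune cells moved with genotype beside Zbp1. All 20 markers summed to 132 and 190 CPM in Lgr5+WT and 22.7 and 16.8 CPM in Lgr5+Setdb1KO, and 15 to 20 of the 20 were detected in a library. Immune-like barcodes numbered 27, 26, 8 and 7 and held 0, 3, 2 and 1 Zbp1 UMIs, and with immune-like and mixed barcodes left out the difference was -0.62 (adjusted p = 0.0919, edgeR).

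**Figure D4:**
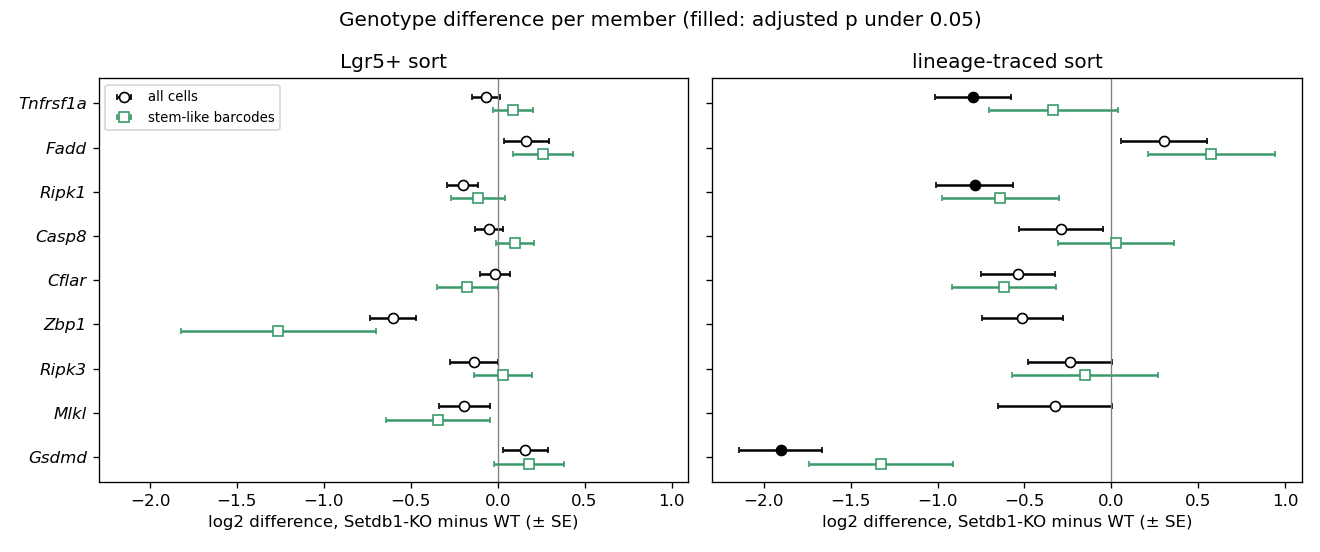
Fitted log2 difference between Setdb1-KO and WT (x axis, ± SE) for each gene in all barcodes (circles) and stem-like barcodes (squares) of each sort; filled symbols have an adjusted p under 0.05. The 3 filled circles are Tnfrsf1a, Ripk1 and Gsdmd in the lineage-traced sort, and Gsdmd lies farthest from 0 (-1.90).

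In the lineage-traced sort 3 of the 9 genes were lower in Setdb1KO over all barcodes, Gsdmd, Tnfrsf1a and Ripk1, in a comparison that called 8.73% of all genes tested, 188 higher and 878 lower. Gsdmd had 13.8 and 17.4 CPM in WT and 6.89 and 5.27 CPM in Setdb1KO, values that do not overlap. It fell 3.74-fold (log2 difference -1.90 ± 0.24, adjusted p = 0.000206, edgeR), and this call was kept under every alternative, from -1.37 with library totals to -2.14 without WT replicate 1. Tnfrsf1a, at 14.1, 11.6, 13.1 and 8.90 CPM, and Ripk1, at 10.3, 9.15, 10.0 and 6.81 CPM, overlap between genotypes in CPM. Their fitted differences were -0.80 ± 0.22 (adjusted p = 0.0419) and -0.79 ± 0.22 (adjusted p = 0.0457, edgeR).

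These 2 calls depended on the scaling. TMM factors and library totals differ so much in this sort that the median of all genes moved from 0.01 to 0.54, and the totals called 3316 genes higher and 491 lower. With totals Tnfrsf1a differed by -0.25 (adjusted p = 0.502) and Ripk1 by -0.25 (adjusted p = 0.531), and Fadd, at 6.01, 7.92, 11.8 and 12.2 CPM, was called higher (0.81, adjusted p = 0.0399, edgeR) against 0.30 (adjusted p = 0.529) with TMM. Both genes also lost their call in DESeq2 (adjusted p = 0.170 and 0.221), without WT replicate 1 (0.393 and 0.320), without WT replicate 2 (0.119 and 0.156) and without Setdb1KO replicate 2 (0.104 and 0.117), although in these fits the differences stayed between -0.64 and -0.87. Ripk1 also missed the threshold with RLE scaling (-0.76, adjusted p = 0.0519) and Tnfrsf1a with the higher UMI minimum (-0.76, adjusted p = 0.0524, edgeR).

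The other genes did not pass in all lineage-traced barcodes. Their log2 differences were -0.54 ± 0.21 for Cflar, -0.51 ± 0.23 for Zbp1, -0.29 ± 0.24 for Casp8, -0.24 ± 0.24 for Ripk3 and -0.33 ± 0.33 for Mlkl, and the median over the 9 was -0.51, beside 0.01 over all genes. With library totals 3 of them changed sign, to 0.27 for Casp8, 0.26 for Ripk3 and 0.18 for Mlkl, and the median over the 9 was -0.01, beside the 0.54 over all genes. Zbp1 stood at 6.58, 7.42, 6.78 and 6.99 CPM, with no order between the genotypes. Cflar, at 21.8, 20.7, 22.3 and 20.0 CPM, and Casp8, at 14.4, 13.6, 22.01 and 12.3 CPM, also overlap. Ripk3 stood at 4.70, 5.20, 5.78 and 5.95 CPM, with both Setdb1KO libraries above both WT libraries in CPM although the fitted difference is negative, and Mlkl at 1.83, 1.48, 2.22 and 1.72 CPM.

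Cell types changed with genotype in this sort, and in sums over all barcodes fewer cells of a type and less RNA per cell cannot be told apart. Enterocyte-like barcodes, the class in which Gsdmd was highest in both WT libraries, numbered 880 of 7860, 252 of 3882, 31 of 4816 and 127 of 10239. Within classes the Gsdmd difference was -1.33 ± 0.42 (adjusted p = 0.167) in stem-like, -0.68 ± 0.57 (adjusted p = 0.935) in dividing, -0.65 ± 0.47 (adjusted p = 0.789) in goblet-like and -2.34 ± 0.51 (adjusted p = 8.04e-05, edgeR) in enterocyte-like barcodes. The last value rests on only 31 and 127 Setdb1KO barcodes, and Gsdmd passed the filter on low counts there through the WT libraries. As the class does not hold matched cells of both genotypes, nothing is read from that value. Droplets without a cell, which sample free RNA, held Gsdmd at 14.1, 14.2, 8.90 and 6.02 CPM. Transcripts of Alpi, the brush border phosphatase of enterocytes, were found in stem-like barcodes at 43.1, 51.2, 3.53 and 1.92 CPM. Leaving out the barcodes whose Paneth marker share was near that of droplets without a cell gave -1.83 (adjusted p = 0.000135, edgeR). The part of free RNA and of the mix of cells in the fall over all barcodes was not tested further.

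Class by class, stem-like barcodes of the lineage-traced sort had 7 genes tested, all but Zbp1 and Mlkl, and 0 called (1.72% of all genes, edgeR), 0 by DESeq2 and 1, Gsdmd, at an unadjusted p under 0.05. Its values there were 9.49, 18.4, 4.95 and 5.00 CPM, from 14 to 26 UMIs, with both WT libraries above both Setdb1KO libraries. Dividing barcodes had 7 tested and 0 called (1.76%), goblet-like barcodes 7 tested and 0 called (2.21%) and Paneth-like barcodes 2 tested and 0 called (2.13%), each with 0 called by DESeq2 and 0 at an unadjusted p under 0.05. Zbp1 differed by 0.24 ± 0.34 in these goblet-like barcodes (adjusted p = 0.926, edgeR), opposite in sign to its difference in Lgr5+ goblet-like barcodes. Enteroendocrine-like barcodes had too few UMIs for any of the 9 to be tested (3.9% of the genes that were tested were called), and tuft-like barcodes were too few for a test, as were the 39, 26, 14 and 224 Paneth-like barcodes of the Lgr5+ sort.

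Enterocyte-like barcodes had 6 genes tested and 4 called, all lower in Setdb1KO, where 33.6% of all genes tested were called. Besides Gsdmd, with 124, 42, 1 and 9 UMIs, they were Casp8, with 47, 18, 1 and 3 UMIs (37.6, 40.6, 18.4 and 5.69 CPM; log2 difference -2.28 ± 0.66, adjusted p = 0.00399), Tnfrsf1a (-1.87 ± 0.56, adjusted p = 0.0052) and Zbp1 (-1.72 ± 0.69, adjusted p = 0.0406, edgeR). These 4 passed the filter on low counts through the WT libraries, where they were high, and Setdb1KO replicate 1 held only 31 barcodes, so nothing is read from their count or shared direction. Cflar went the other way without passing, at 38.4, 29.3, 92.0 and 41.7 CPM (0.59 ± 0.43, adjusted p = 0.291). The class itself differed between genotypes, as Alpi stood in it at 904, 620, 202 and 94.9 CPM, and it does not hold matched cells of the 2 genotypes. DESeq2 called 1 of these genes, Gsdmd, and gave 4 no adjusted p. Of the 4 calls, 0 were left without Setdb1KO replicate 2 and 1 without WT replicate 1. The Zbp1 call was lost without any 1 of the 4 libraries (adjusted p = 0.0969 to 0.433) and without the filter on low counts (-1.79, adjusted p = 0.148, edgeR).

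Whether the genotype effect differs between the sorts was tested with an interaction term over the 8 libraries, which called 1 of the 9 genes, Gsdmd, and 7.58% of all genes tested. Of all called genes 19.9% had a more positive effect in the lineage-traced sort, against 84.3% with library totals. Its effect was lower in the lineage-traced sort by 2.04 ± 0.25 on the log2 scale (adjusted p = 0.000394, edgeR), under every alternative over all barcodes. Differences for Tnfrsf1a (-0.72 ± 0.22, adjusted p = 0.0683), Ripk1 (-0.58 ± 0.22, adjusted p = 0.137) and Cflar (-0.50 ± 0.19, adjusted p = 0.141) did not pass. In goblet-like barcodes alone the term called 0 of the 9 (0.78% of all genes, edgeR; DESeq2 was not run here), with 1 at an unadjusted p under 0.05, Zbp1 (0.86 ± 0.34, adjusted p = 0.448). For Gsdmd it was 0.05 ± 0.51 there, and -1.47 ± 0.45 (adjusted p = 0.213) in stem-like barcodes, where 0 of the 9 were called by edgeR (0.888% of all genes, again without DESeq2) and 1, Gsdmd, had an unadjusted p under 0.05.

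Beyond the 9, 118 genes of the same pathways were followed as fixed lists, also chosen with earlier results of these data known. In all barcodes of the Lgr5+ sort 105 were tested, and 0 were higher and 2 lower in Setdb1KO, a share of 1.90% beside 1.34% of all genes. They were Irf1, a transcription factor of the interferon response, at 61.0, 47.6, 33.2 and 33.7 CPM (log2 difference -0.68 ± 0.11, adjusted p = 0.0366), and Casp4, the inflammatory caspase that cleaves gasdermin D, at 16.5, 15.1, 6.59 and 8.62 CPM (-1.01 ± 0.16, adjusted p = 0.0394, edgeR). By list, 0 of 5 ligands, 0 of 7 other receptors, 0 of 26 receptor complex and ubiquitin genes, 0 of 13 necroptosis modulators, 0 of 17 apoptosis genes, 1 of 18 pyroptosis genes and 1 of 19 interferon signalling genes were called. The interferon list had a median log2 difference of -0.49, with 18 of 19 lower, beside -0.01 over all genes, and the immune marker sums given above moved the same way. In stem-like barcodes its median was -0.46, with 14 of 15 lower. Of the 94 pathway genes tested there, 0 were called, beside 0.898% of all genes. The ligand list had medians of -0.54 over all barcodes (3 of 5 lower) and -1.45 in stem-like ones (3 of 3 lower). Over all barcodes the medians of the remaining lists ran from -0.11 to 0.02.

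Of the 101 pathway genes tested in all barcodes of the lineage-traced sort, 1 was higher and 14 were lower, or 14.8% beside 8.73% of all genes. The 6 with the smallest adjusted p were Pmaip1, which encodes the BH3-only protein NOXA (-1.77 ± 0.25), the inflammasome gene Nlrp9b (-4.77 ± 0.71, at only 1.15, 1.48, 0 and 0.0748 CPM), the cytokine gene Il18 (-1.64 ± 0.25), Itpk1, an inositol phosphate kinase needed for MLKL activation (-1.25 ± 0.23), the death receptor gene Fas (-1.28 ± 0.24) and Gsdmc4 (-1.28 ± 0.24). Fas stood at 6.22, 6.19, 3.45 and 3.67 CPM and Il18 at 24.2, 25.6, 9.89 and 12.5 CPM, both without overlap. These are TMM-scaled differences, and the shift of all genes with library totals given above applies to them too. They also come from sums over all barcodes, in which enterocyte-like barcodes were fewer in Setdb1KO. Fewer cells of a type and less RNA per cell cannot be told apart in them. By list, calls were 0 of 3 ligands, 1 of 7 other receptors, 2 of 26 receptor complex and ubiquitin genes, 2 of 13 necroptosis modulators, 3 of 17 apoptosis genes, 4 of 18 pyroptosis genes and 3 of 17 interferon signalling genes, the last including the 1 that was higher. Over all barcodes the interferon list had a median log2 difference of -0.21, with 11 of 17 lower. The receptor complex and ubiquitin list had -0.22, with 22 of 26 lower. Medians of the lists ran from -0.90 (ligands, 2 of 3 lower) to -0.09 (necroptosis modulators, 7 of 13 lower). In stem-like barcodes 81 were tested and 1 was called (1.24%, beside 1.72% of all genes), Il18 (19.8, 21.0, 8.48 and 8.66 CPM; log2 difference -1.26 ± 0.32, adjusted p = 0.0460, edgeR). Il18 was among the 10 leading genes of Lgr5+ enterocyte-like barcodes. The enterocyte gene Alpi stood at 43.1, 51.2, 3.53 and 1.92 CPM in the same stem-like barcodes. The part of free RNA in the Il18 call in stem-like barcodes was not tested. The interferon list differed by a median of 0.44 there, with 2 of 13 lower and 0 called, so its median had opposite signs in stem-like and in all barcodes. It was 0.33 in dividing and -0.14 in goblet-like barcodes, where 2 of 11 and 2 of 12 were called higher and 0 lower. In enterocyte-like ones it was -0.99, with 5 tested and 1 called lower. Over all lists the calls were 2 of 75 genes in dividing (2.67%, beside 1.76% of all genes) and 2 of 72 in goblet-like barcodes (2.78%, beside 2.21%). In enterocyte-like barcodes they were 4 higher and 13 lower of 45 (37.8%, beside 33.6%).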

How the data were processed

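Single-cell RNA-seq of 8 libraries was used, and the 10 other samples of the series (total RNA-seq, H3K9me3 and scATAC-seq) were not used here. The values are raw counts of UMIs, which the authors deposited as matrices of features by barcodes, not normalized and before any cell was called. The submitters' notes name Cell Ranger 6.1.1 and build mm10, while the file headers name another Cell Ranger release. Samples were grouped by their labels.

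Barcodes with 1000 (Lgr5+) or 500 (lineage-traced) to 18000 UMIs and under 5% mitochondrial UMIs were kept. A barcode joined a differentiated class with at least 3 marker UMIs and a marker share of all its UMIs over a fixed minimum. For the Lgr5+ sort these were 5% (goblet), 10% (Paneth), 1% (enterocyte and enteroendocrine), 0.2% (tuft) and 0.1% (immune), and for the lineage-traced sort 8%, 30%, 2% (enterocyte), 0.5% (enteroendocrine), 0.2% and 0.1%. Of the rest, it joined dividing at 0.15% or stem-like at 0.3% (0.15% lineage-traced), with at least 2 marker UMIs. Barcodes that reached 2 differentiated classes were left out of all classes as mixed (59 to 239 and 8 to 54 a library), no doublet caller was run, and 16.9% to 24.3% and 36.0% to 63.1% stayed unassigned. Between 3 and 1433 barcodes of a class and library lay within 20% of its minimum.

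UMIs were summed per library, or per library and class with at least 20 barcodes in every library, and tested in edgeR 4.0.16 (R 4.3.3; filterByExpr, TMM, quasi-likelihood F test, Benjamini-Hochberg over all genes tested, threshold 0.05), with genotype as the term, or class with library as a block. CPM use the plain total, and fitted differences use TMM. On simulated counts with 13662 genes for all Lgr5+ cells, 74% of genes changed by 1 and 99% of those changed by 2 on the log2 scale were recovered. For the goblet-like genotype fit (10298 genes) the shares were 63% and 96%, and for the difference between sorts (13781 genes) 31% and 82%. The simulation gave every gene the same dispersion and drew the changed genes at random. It therefore does not give the recovery of a gene with few UMIs, and no lineage-traced genotype fit was simulated. Alternatives were DESeq2 1.42.0, RLE scaling, no filter on low counts, 10% mitochondrial UMIs, at least 2000 (Lgr5+) or 1000 UMIs, 200 to 4000 genes a barcode, the marker minimum doubled, a replicate block and leaving out each library. Chosen after the data were seen were library totals, barcodes of immune, mixed or free RNA kind left out, and the difference between sorts in stem-like or goblet-like barcodes. Thinning used the UMI minimum. Patterns were correlated as log2(CPM + 10) over genes with at least 500 UMIs.

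All 9 genes are named in the genotype comparisons over all barcodes and in Lgr5+ stem-like barcodes, and in the other classes only some of those tested are. Pathway genes are named where called over all cells or in stem-like barcodes, at most 6 by adjusted p. The genes and lists were chosen with earlier results of these data known. Gene positions are from GENCODE M21 (GRCm38) and promoters from RefSeq (GRCm38.p6). The ± values include the spread between libraries, and shares of barcodes are given without an interval.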

Additional observations from a re-analysis of the deposited data

Results flagged for a closer look

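The genotype effect on Gsdmd over all barcodes differed between the sorts by a tested interaction. Setdb1-KO minus WT was 0.16 ± 0.13 on the log2 scale in the Lgr5+ sort and -1.90 ± 0.24 in the lineage-traced sort, a difference of -2.041 ± 0.254 (adjusted p = 0.000394, edgeR). The CPM of both lineage-traced WT libraries were above those of both Setdb1KO libraries. The mix of cell types differed between libraries in both sorts, and in these sums cell numbers and RNA per cell cannot be told apart. In stem-like and in goblet-like barcodes alone the term called 0 of the 9 genes.

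The effect on Setdb1 itself also differed. It was -0.85 ± 0.14 in the Lgr5+ sort and 0.24 ± 0.23 in the lineage-traced sort, a difference of 1.088 ± 0.273 (adjusted p = 0.0327, edgeR). The Setdb1 CPM of both lineage-traced libraries labelled Setdb1-KO were above those of both WT libraries.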

How the results depend on the processing

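For single genes, 2117 of 2370 values recomputed under alternatives kept a call and its direction, or were uncalled and moved by less than their standard error, 91 lost a call, 42 gained a call, 112 moved without a call at stake and 8 changed sign with a call before or after, 5 of them from a called value. Counting uncalled values too, 131 changed sign, 29 of them with library totals. The counts of called genes were 0 in the Lgr5+ sort over all barcodes and in stem-like barcodes under each alternative run, leave-outs included (0 to 0). In the other classes of both sorts 4 calls became 1 with DESeq2 and 0 with the higher UMI minimum and with the marker minimum doubled, since the lineage-traced enterocyte-like class then had under 20 barcodes in a library, and 0 to 5 when a library was left out. Over all lineage-traced barcodes 3 became 1 with DESeq2 and 1 to 3 without a library, and in lineage-traced stem-like barcodes the count stayed 0 to 0 without a library. Class differences numbered 32 in the Lgr5+ sort (28 to 30 without a library) and 20 in the lineage-traced sort (8 with the marker minimum doubled, 11 to 17 without a library). The difference between sorts went from 1 gene to 2 with 10% mitochondrial UMIs, 0 in stem-like and 0 in goblet-like barcodes, and 1 to 3 without a library. With library totals the sign changed for Ripk1 in Lgr5+ enterocyte-like (-0.33) and goblet-like barcodes (-0.040), Fadd in Lgr5+ enteroendocrine-like barcodes (0.10), and Cflar (-1.39), Tnfrsf1a (-1.17) and Ripk1 (-1.46) in lineage-traced Paneth-like barcodes. With the higher UMI minimum, which left fewer classes to compare, Gsdmd changed sign in lineage-traced goblet-like (0.81) and Paneth-like barcodes (0.038). In genotype fits, library totals moved the share of all calls that were higher from 75% to 45.8% in Lgr5+ tuft-like, 80% to 66.7% in Lgr5+ enteroendocrine-like, 19.4% to 87.5% in lineage-traced Paneth-like and 2.5% to 16.7% in lineage-traced enteroendocrine-like barcodes. Replicate numbers are shared by the groups but not shown to pair them: with 2 pairs a sort, the deviations of same-numbered libraries correlated at r = 0.01 (Lgr5+) and 0.31 (lineage-traced) across genes. With the replicate block, calls rose from 3 to 5 over all lineage-traced barcodes (adding Cflar and Zbp1), from 0 to 1 in stem-like ones (Gsdmd) and from 1 to 2 for the difference between sorts, and fell from 4 to 2 in lineage-traced enterocyte-like barcodes, without Zbp1 (adjusted p = 0.103) and Tnfrsf1a (adjusted p = 0.0503, edgeR). Zbp1 passed with the block in Lgr5+ goblet-like (adjusted p = 0.0045, edgeR) and enterocyte-like barcodes (adjusted p = 0.0014, edgeR), and the cause was not tested. Calls over all genes moved with the block too. They rose from 1066 to 2579 over all lineage-traced barcodes, from 162 to 247 in stem-like ones and from 1045 to 1729 for the difference between sorts. They fell from 1352 to 814 in lineage-traced enterocyte-like barcodes, and rose from 41 to 298 in Lgr5+ goblet-like and from 46 to 245 in Lgr5+ enterocyte-like ones. Lineage-traced enterocyte-like, enteroendocrine-like and Paneth-like fits with fewer barcodes than the minimum were not run. Mlkl and Ripk3 had too few UMIs to pass the filter in the class contrasts of the lineage-traced sort, where depth and a low level cannot be told apart.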
